A study of Mus musculus with 4 samples.

Results

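The genes described here are 10 feedback inhibitors of MAP kinase signalling: the dual-specificity phosphatase genes Dusp1, Dusp2, Dusp4, Dusp5, Dusp6, Dusp10 and Dusp16, and the Sprouty family genes Spry1, Spry2 and Spred1. They were chosen by gene symbol, with earlier results of these data known. All 10 were found, each once, among the 52636 genes of the deposited count table, and all 10 were among the 15503 genes that passed the filter on low counts. RNA-seq was done on 4 libraries, 2 of them labelled E4BP4-cKO, for a conditional knockout of E4BP4 (the transcription factor encoded by Nfil3), and 2 labelled wild-type, all from C57BL/6 mice. In both groups naive CD4 T cells from spleen were cultured for 3 days with a mix meant to polarise them toward the T follicular helper (Tfh) state. The medium held 10 ng/ml of IL-6 and of IL-21, 10 µg/ml of blocking antibody to each of IFN-γ and IL-4, and 20 µg/ml of antibody to TGF-β. The sources used here give neither the Cre driver, the deleted exons nor the age of the mice, nor whether each library is a mouse of its own. P-values therefore set the group difference against the variation between these libraries, which may not be that between mice.

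MAP kinases carry signals from the T cell receptor, costimulatory receptors and cytokine receptors to the nucleus through the ERK, JNK and p38 branches. The dual-specificity phosphatases switch the kinases off by removing phosphate from both the threonine and the tyrosine of their activation loop, and many of their genes are themselves induced by MAP kinase signalling, which closes a negative feedback loop. Sprouty and Spred proteins act further upstream, at the level of Ras and Raf. In T cells such inhibitors limit the length and strength of activation.

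Library totals ran from 19057077 to 26579592 counts, so that 1 count was worth 0.0385 to 0.0546 CPM (read counts relative to the library total, scaled with TMM factors). Nfil3, the targeted gene, went against its labels, with 4649 and 3965 counts in the E4BP4-cKO-labelled libraries but 290 and 377 counts in the wild-type-labelled libraries. Groups are therefore named by their labels, and no direction here stands for a loss of E4BP4. The 9 T cell markers summed to 3791 and 4256 CPM in the E4BP4-cKO-labelled libraries and to 4082 and 4126 CPM in the wild-type-labelled libraries, and none of the 9 had an adjusted p under 0.05. The Tfh transcription factor gene Bcl6 averaged 14.3 CPM in E4BP4-cKO against 19.8 CPM in wild-type (adjusted p = 0.111), and the Tfh homing receptor gene Cxcr5 7.21 CPM in E4BP4-cKO against 6.93 CPM in wild-type (adjusted p = 0.921). Pdcd1, the PD-1 gene, averaged 83.2 CPM in E4BP4-cKO against 134 CPM in wild-type (adjusted p = 0.0710), and the cytokine gene Il21 112 CPM in E4BP4-cKO against 185 CPM in wild-type (adjusted p = 0.141). DESeq2 called Pdcd1 and Il21 lower (adjusted p = 0.0126 and 0.0464), as did the fit without E4BP4-cKO replicate 1. The costimulatory receptor gene Icos was higher, with 359 CPM in E4BP4-cKO against 210.3 CPM in wild-type (adjusted p = 0.0485), but not under library totals alone, a filter at a mean of 1 CPM, a replicate block, or with E4BP4-cKO replicate 2 or any wild-type library left out.

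In the E4BP4-cKO-labelled libraries, 2 of the 10 genes were higher, the ERK phosphatase gene Dusp5 and the JNK phosphatase gene Dusp16, and 0 were lower. The test was edgeR's quasi-likelihood test with Benjamini-Hochberg adjustment over all 15503 genes, and genes with an adjusted p under 0.05 are said to be called. By that rule 14.2% of all genes were called, 7.68% higher (1191) and 6.53% lower (1013). Under scaling by library totals alone 1033 were higher and 1636 lower. An unadjusted p under 0.05 was found for 2 of the 10 genes, 0 of them lower, beside 35.7% of all genes tested. The called share of the 10, 20%, lay above the 14.2% of all genes, while the unadjusted share lay below 35.7%. Neither difference was tested. DESeq2 also called 2 of the 10 higher and 0 lower, with 1795 higher and 1657 lower over all genes, and so did limma-voom, with 1233 and 1009. The 10 genes had a median log2 fold change of 0.16, beside 0.019 over all genes tested. With E4BP4-cKO replicate 2 left out, 0 of the 10 were called, and over all genes that fit called 246 higher and 74 lower. In bulk RNA such as this, more cells of a type and more RNA per cell cannot be told apart.

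Because Dusp5 and Dusp16 are the genes that differed, the 250 bases before their RefSeq starts are shown, with those of Dusp1, which has the full cyclic AMP response element (CRE) and was not called. The sequences are RefSeq's on GRCm38.p6, and 9 of the 10 genes matched that table; Dusp4 did not. Capitals mark the CRE TGACGTCA, its core TGACG on either strand, and CArG boxes, the sites of serum response factor, which were added to the search after the sequences had been read.
Dusp5 (chr19:53528895-53529144, plus strand): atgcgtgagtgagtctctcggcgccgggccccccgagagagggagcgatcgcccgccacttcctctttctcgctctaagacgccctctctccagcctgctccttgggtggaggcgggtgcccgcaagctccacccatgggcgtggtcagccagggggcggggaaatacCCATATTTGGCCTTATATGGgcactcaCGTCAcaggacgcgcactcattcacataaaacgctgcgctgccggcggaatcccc
Dusp16 (chr6:134792629-134792878, minus strand): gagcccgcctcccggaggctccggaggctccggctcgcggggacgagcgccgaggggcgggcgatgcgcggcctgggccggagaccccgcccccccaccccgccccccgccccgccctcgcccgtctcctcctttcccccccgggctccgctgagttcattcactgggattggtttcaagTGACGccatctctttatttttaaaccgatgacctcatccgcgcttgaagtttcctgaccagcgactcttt
Dusp1 (chr17:26508473-26508722, minus strand): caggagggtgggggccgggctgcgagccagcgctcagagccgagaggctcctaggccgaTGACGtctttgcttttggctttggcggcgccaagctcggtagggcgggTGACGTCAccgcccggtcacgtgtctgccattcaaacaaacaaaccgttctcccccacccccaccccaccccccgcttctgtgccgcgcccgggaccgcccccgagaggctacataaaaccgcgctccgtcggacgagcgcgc

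The Dusp5 stretch held 2 CArG boxes directly beside each other, 72 and 62 bases before the start, and a CRE core 50 bases before it. A CArG box was in 1 of the 9 windows of these genes, that of Dusp5, and in 1.63% of all 32851 RefSeq windows of 300 bases. The CRE core was in 4 of the 9, those of Dusp1, Dusp2, Dusp5 and Dusp16, and in 20.8% of all windows. The full CRE, which contains the core on both strands, was in the window of Dusp1 and in 1.79% of all windows. The D-box motifs TTACGTAA and TTATGTAA, which E4BP4 binds, were in 0 of the 9 windows and in 0.119% and 0.938% of all windows. The AP-1 motif TGACTCA, which reads TGAGTCA on the other strand, was in 0 of the 9 and in 5.2% of all. The 9 windows held 57.3% to 72.3% G and C bases, against a median of 52.7% over all windows. The shares over all windows were not matched for this. All were searched on both strands; a match describes these letters and is not a measured binding site, and no match says only that the letters are not in this window.

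Dusp5 encodes a nuclear phosphatase that acts on ERK and holds it in the nucleus (ENSMUSG00000034765, chromosome 19, 53529109 to 53542431, plus strand in mm10, 4 exons). Its counts were 8867 and 6634 in the E4BP4-cKO-labelled libraries and 1298 and 2750 in the wild-type-labelled libraries, or 341 and 362 CPM in E4BP4-cKO against 59.3 and 108 CPM in wild-type. The groups did not overlap: each library labelled E4BP4-cKO was 3.16 to 6.10 times as high as each labelled wild-type. The means were 352 ± 15.0 CPM in E4BP4-cKO and 83.6 ± 34.4 CPM in wild-type (SD, n = 2 each), which gave a log2 fold change of 2.07 (SE 0.29, 95% interval 1.34 to 2.80, adjusted p = 0.0256). The larger spread was in the wild-type-labelled libraries, where replicate 1 had 0.550 times the level of replicate 2. With E4BP4-cKO replicate 2 left out, Dusp5 was no longer called (2.04, adjusted p = 0.0701). The antisense gene AC137853.2 covers 22.12% of the exon bases of Dusp5 in GENCODE M21. Its identifier is absent from the deposited counts, so it could not be analysed. The strand setting of the counting is unknown, so reads of that gene cannot be told apart from those of Dusp5.

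Dusp16 encodes a phosphatase of JNK and p38 that shuttles between nucleus and cytoplasm (ENSMUSG00000030203, chromosome 6, 134715468 to 134792625, minus strand, 10 merged exons). It had 54.1 and 52.1 CPM in the E4BP4-cKO-labelled libraries and 22.1 and 25.2 CPM in the wild-type-labelled libraries. Every library labelled E4BP4-cKO was 2.07 to 2.45 times as high as every library labelled wild-type, and within each group the libraries lay close together. The log2 fold change was 1.17 (SE 0.13, 95% interval 0.85 to 1.48, adjusted p = 0.0198), and with E4BP4-cKO replicate 2 left out the gene was not called (1.21, adjusted p = 0.0523). No other gene of GENCODE M21 shares exon bases with Dusp16. Of all genes tested, 94.3% had a smaller absolute log2 fold change than Dusp5 and 86.0% a smaller one than Dusp16, against 13.9% to 65.0% for the other 8 genes.

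**Figure D1:**
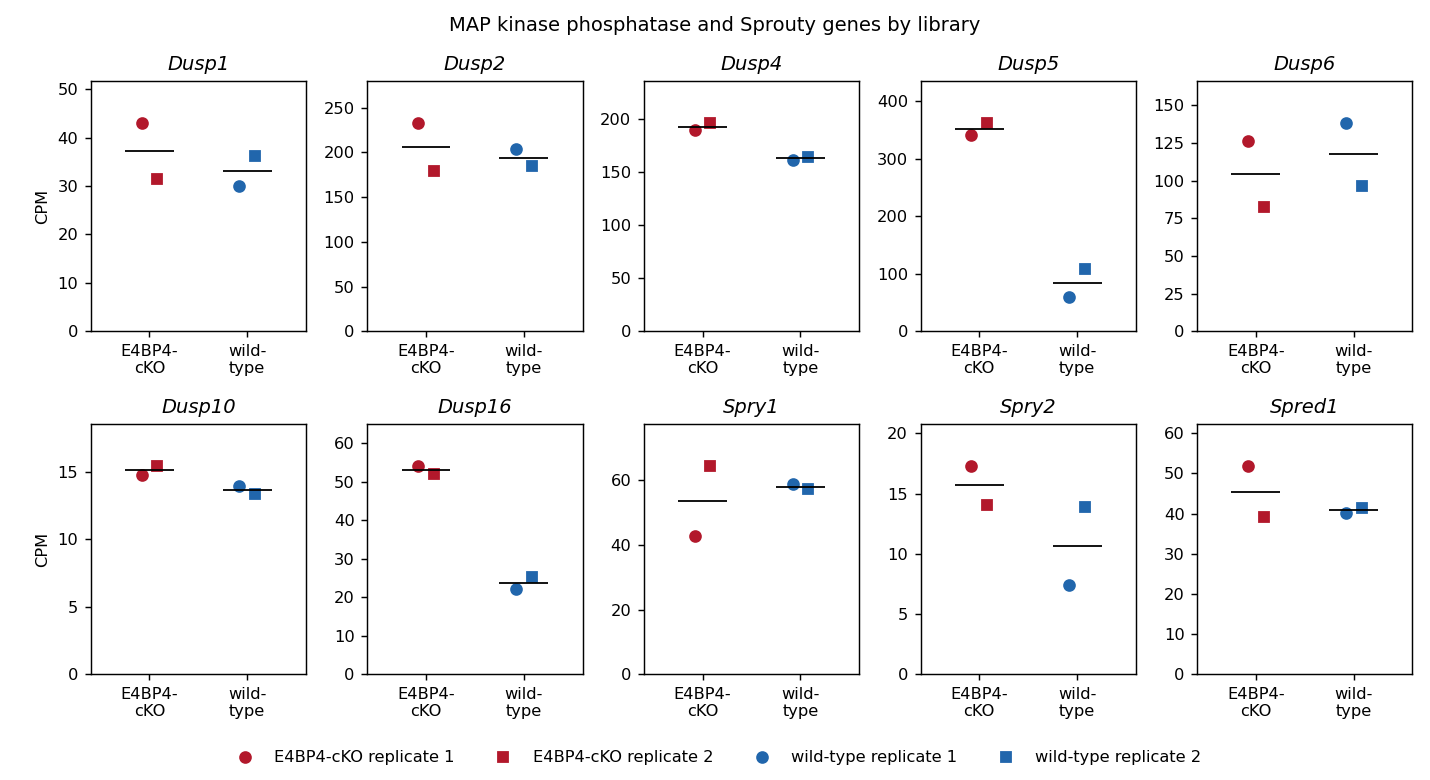
Level of each of the 10 genes in CPM (vertical axes, each from 0) in the 2 E4BP4-cKO-labelled libraries and the 2 wild-type-labelled libraries; points are libraries and lines are group means. Dusp5 at 341 and 362 CPM in E4BP4-cKO against 59.3 and 108 CPM in wild-type and Dusp16 at 54.1 and 52.1 CPM in E4BP4-cKO against 22.1 and 25.2 CPM in wild-type are the genes called. The groups do not overlap for these genes or for Dusp4, Dusp10 and Spry2, as for 68.2% of all genes tested. Those of Dusp1, Dusp2, Dusp6, Spry1 and Spred1 overlap.

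Of the other nuclear phosphatases, Dusp4, which acts on ERK and JNK, had 189.6 and 197 CPM in the E4BP4-cKO-labelled libraries and 162 and 165 CPM in the wild-type-labelled libraries. Its groups did not overlap, but the difference was small, with a log2 fold change of 0.24 (95% interval -0.0093 to 0.50, adjusted p = 0.150). For the genes that follow, the first value in brackets is the log2 fold change, E4BP4-cKO over wild-type. Dusp2, first known as a phosphatase of activated T cells, had 233 and 179 CPM in E4BP4-cKO against 204 and 184 CPM in wild-type, so that E4BP4-cKO replicate 1 was the highest of the 4 libraries and replicate 2 the lowest (0.087, 95% interval -0.31 to 0.49). Dusp1, which acts on p38, JNK and ERK, had 43.1 and 31.4 CPM in E4BP4-cKO against 30.0 and 36.1 CPM in wild-type, and the groups overlapped (0.17, 95% interval -0.32 to 0.67). With E4BP4-cKO replicate 1 left out, the log2 fold changes of Dusp2 and Dusp1 were -0.12 and -0.077. In GENCODE M21, whose Dusp1 gene is longer than that of the count table, Ergic1 on the opposite strand shares 0.33% of the exon bases of Dusp1.

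Dusp6, the cytoplasmic ERK phosphatase, differed more within the groups than between them. It had 126 and 82.4 CPM in the E4BP4-cKO-labelled libraries and 138 and 96.6 CPM in the wild-type-labelled libraries, and in each group replicate 1 was the higher library, by 1.53 times in E4BP4-cKO and 1.43 times in wild-type. The labels do not tie libraries with the same number to a shared animal or culture. The log2 fold change was -0.17 (95% interval -0.83 to 0.49, adjusted p = 0.683), and it was 0.12 with E4BP4-cKO replicate 2 and 0.11 with wild-type replicate 1 left out. Dusp10, a phosphatase of p38 and JNK like Dusp16, had 14.8 and 15.4 CPM in E4BP4-cKO against 13.9 and 13.4 CPM in wild-type. Its groups did not overlap but lay close together (0.15, 95% interval -0.26 to 0.56, adjusted p = 0.561). The interval of Dusp10 lay below that of Dusp16; the difference between these genes was not itself tested.

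Among the Sprouty family, which restrains Ras and Raf, no gene of the 3 was called. Spry1 had 42.8 and 64.4 CPM in the E4BP4-cKO-labelled libraries and 58.7 and 57.2 CPM in the wild-type-labelled libraries, so that the libraries labelled E4BP4-cKO enclosed both others (-0.11, 95% interval -0.62 to 0.39, and 0.15 with E4BP4-cKO replicate 1 left out). The antisense gene Gm42922, which covers 24.43% of the exon bases of Spry1, had at most 7 counts in any library, beside at least 1113 of Spry1. The strand setting and the treatment of shared reads are unknown, so these counts may not give the full level of either gene. Spry2 had 17.3 and 14.1 CPM in the E4BP4-cKO-labelled libraries and 7.41 and 13.9 CPM in the wild-type-labelled libraries. Its groups came close to touching, at 14.1 CPM in E4BP4-cKO and 13.9 CPM in wild-type, while the wild-type-labelled libraries differed 1.88-fold. The wide interval, -0.28 to 1.39 around 0.56, includes both no difference and a rise of 2.62-fold. Spred1, which brings neurofibromin to the membrane to switch Ras off, had 51.9 and 39.1 CPM in E4BP4-cKO against 40.2 and 41.5 CPM in wild-type, and the groups overlapped (0.16, 95% interval -0.25 to 0.56, and -0.067 with E4BP4-cKO replicate 1 left out).

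Groups did not overlap for 5 of the 10 genes, Dusp4, Dusp5, Dusp10, Dusp16 and Spry2, all with the libraries labelled E4BP4-cKO above. Over all genes tested 68.2% had groups that did not overlap, 34.6% with E4BP4-cKO above and 33.6% with it below, so a gap between the groups alone is common in these libraries. For 6 of the 10 genes, Dusp1, Dusp2, Dusp6, Spry1, Spry2 and Spred1, the larger ratio between the libraries of a group exceeded the ratio between the group means. That larger within-group ratio reached from 1.04 for Dusp4 and Dusp10 to 1.88 for Spry2.

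**Figure D2:**
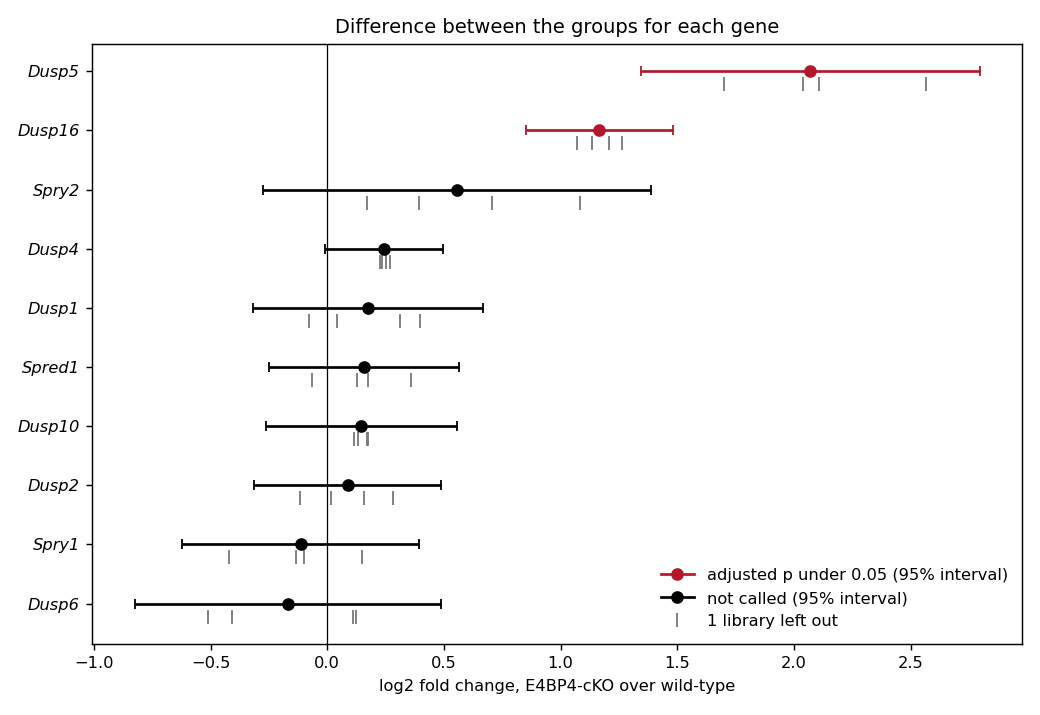
Log2 fold change of each gene, E4BP4-cKO over wild-type (horizontal axis), with its 95% interval; red marks genes with an adjusted p under 0.05, and the short grey lines below each point are the values with 1 library left out. The intervals of Dusp5 (1.34 to 2.80) and Dusp16 (0.85 to 1.48) lie above 0, and those of the other 8 genes include 0.

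Set on a scale that allows genes to be compared, CPM per kilobase of gene length, the order of the genes differed between the groups at both ends, for Dusp5 at the top and for Dusp16 at the bottom. In the E4BP4-cKO-labelled libraries Dusp5 was the most abundant at 142 ± 6.06 CPM per kilobase (SD, n = 2, here and for the other genes), followed by Dusp2 (103 ± 19.1), Dusp4 (70.5 ± 1.87) and Dusp6 (33.3 ± 9.94), with no overlap between neighbours. In the wild-type-labelled libraries Dusp2 came first at 96.9 ± 6.84 CPM per kilobase, then Dusp4 (59.6 ± 0.681), Dusp6 (37.5 ± 9.46) and Dusp5 (33.8 ± 13.9), and Dusp6 and Dusp5 overlapped. Spry1 and Dusp1 followed in both groups, with means between 12.3 and 19.9 CPM per kilobase. The 4 least abundant in the E4BP4-cKO-labelled libraries were Spry2, Dusp16, Spred1 and Dusp10, from 7.53 to 4.97 CPM per kilobase, with Dusp16 overlapping both Spry2 and Spred1. In the wild-type-labelled libraries these 4 ran from 6.03 (Spred1) to 3.03 CPM per kilobase (Dusp16), and Spry2 overlapped Spred1 and Dusp10. Dusp16 stood above Dusp10 in the E4BP4-cKO-labelled libraries and below it in the wild-type-labelled libraries, with no overlap between these genes in either group.

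The 10 genes summed to 422 and 392 CPM per kilobase in the E4BP4-cKO-labelled libraries and to 277 and 280 CPM per kilobase in the wild-type-labelled libraries. Dusp5 made up 32.6% and 37.3% of that sum in the E4BP4-cKO-labelled libraries, against 8.66% and 15.6% in the wild-type-labelled libraries. Without Dusp5, the other 9 genes summed to 284 and 246 CPM per kilobase in E4BP4-cKO against 253 and 236 in wild-type, and the groups overlapped. These sums describe the libraries and were not tested.

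**Figure D3:**
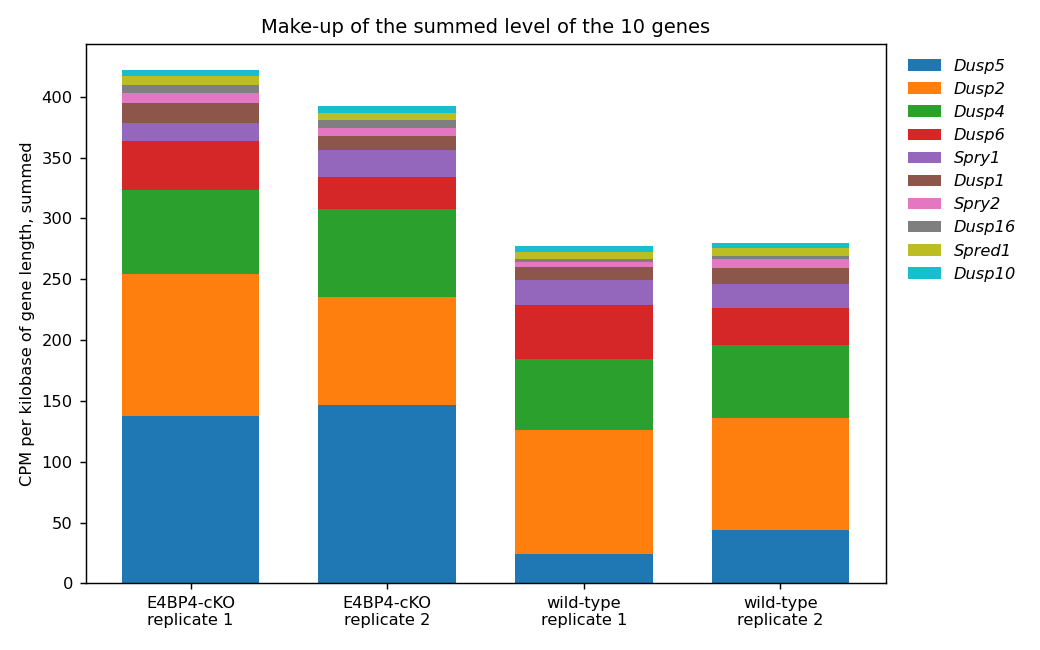
Summed level of the 10 genes in CPM per kilobase of gene length (vertical axis, from 0) in each library, with the libraries labelled E4BP4-cKO on the left; each colour is a gene. The lowest block, Dusp5, takes 32.6% and 37.3% of the sum in the E4BP4-cKO-labelled libraries against 8.66% and 15.6% in the wild-type-labelled libraries.

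Other genes of the same families were described from a fixed list of 10, of which 9 were tested and 1, Spry3, was too low. Spred3, a relative of Spred1, was higher, with 32.8 and 54.1 CPM in the E4BP4-cKO-labelled libraries and 6.22 and 10.7 CPM in the wild-type-labelled libraries (2.35 on the log2 scale, SE 0.36, adjusted p = 0.0277), and 0 of the 9 were lower. Instead of 1, 4 were higher with E4BP4-cKO replicate 1 left out, and 0 with replicate 2 left out; DESeq2 called 4 higher and 1 lower, the fit with no filter 5 and 1, and library totals alone 1 and 1. Spred2 had 42.8 and 74.4 CPM in E4BP4-cKO against 32.0 and 26.6 CPM in wild-type (1.00, adjusted p = 0.0671), and the ERK phosphatase gene Dusp7 56.6 and 76.6 CPM in E4BP4-cKO against 46.5 and 40.3 CPM in wild-type (0.62, adjusted p = 0.0711). Dusp14, a phosphatase that acts on kinases of T cell receptor signalling, had 15.3 and 12.2 CPM in E4BP4-cKO against 23.8 and 21.7 CPM in wild-type (-0.72, adjusted p = 0.0562). These 3 were not called, but DESeq2 called Spred2 (adjusted p = 0.00567), Dusp7 (adjusted p = 0.0302) and Dusp14 (adjusted p = 0.0157), and library totals alone called Dusp14 (adjusted p = 0.0427). The median log2 fold change of the 9 was 0.62, beside 0.019 over all genes. In the main fit 11.1% of the 9 were higher and 0% lower, beside 7.68% and 6.53% of all genes tested.

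Of 18 genes of the cascade from Ras to ERK, on which these inhibitors act, 2 were higher and 1 lower, with a median log2 fold change of 0.050. Over all genes 14.2% were called, and 16.8% of the 8839 at least as abundant as the lowest of the 10 inhibitors, so 3 of 18 is near the background. Mapk3, which encodes ERK1, had 117 and 118 CPM in the E4BP4-cKO-labelled libraries and 76.5 and 78.7 CPM in the wild-type-labelled libraries (0.60, adjusted p = 0.0287). The Ras exchange factor gene Sos2 had 77.9 and 82.3 CPM in E4BP4-cKO against 56.0 and 58.1 CPM in wild-type (0.49, adjusted p = 0.0375), and its relative Sos1 47.8 and 52.7 CPM in E4BP4-cKO against 36.3 and 36.8 CPM in wild-type, not called (adjusted p = 0.0535; adjusted p = 0.0495 with upper-quartile factors and 0.0493 with DESeq2). Ksr1, a scaffold that holds Raf, MEK and ERK together, was lower, with 159 and 113 CPM in E4BP4-cKO against 264 and 262 CPM in wild-type (-0.95, SE 0.18, adjusted p = 0.0352). With any of E4BP4-cKO replicate 2, wild-type replicate 1 and wild-type replicate 2 left out, 0 of the 18 were called, and with E4BP4-cKO replicate 1 left out, 2 were lower. DESeq2 called 4 higher and 2 lower, the fit with no filter 4 and 3, and library totals alone 2 and 2.

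Of the 7 genes for Ras GTPase activating proteins, which switch Ras off, 2 were higher and 2 lower, with a median log2 fold change of 0.27. These were shares of 28.6% each, beside 7.68% higher and 6.53% lower over all genes tested, and the list as a whole was not tested. Rasa3 had 85.3 and 99.6 CPM in the E4BP4-cKO-labelled libraries and 35.9 and 47.0 CPM in the wild-type-labelled libraries (1.16, SE 0.17, adjusted p = 0.0270), and Rasa2 71.0 and 71.2 CPM in E4BP4-cKO against 44.7 and 49.8 CPM in wild-type (0.59, adjusted p = 0.0331). Rasal1 stood at 8.88 and 6.93 CPM in E4BP4-cKO against 20.0 and 19.9 CPM in wild-type (-1.33, SE 0.20, adjusted p = 0.0274), and Rasa1 at 78.1 and 74.8 CPM in E4BP4-cKO against 135 and 116 CPM in wild-type (-0.71, adjusted p = 0.0299). With E4BP4-cKO replicate 2 left out, 0 were higher and 0 lower. With wild-type replicate 1 left out, 1 was higher and 0 lower, and with E4BP4-cKO replicate 1 left out, 1 was higher and 2 lower.

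Of 20 genes of the p38 and JNK cascade, 0 were higher and 1 was lower, with a median log2 fold change of 0.14. These were shares of 0% and 5%, beside 7.68% higher and 6.53% lower over all genes tested. The lower gene was Mapk8, which encodes JNK1, a kinase on which Dusp16 acts. Mapk8 had 14.0 and 10.97 CPM in the E4BP4-cKO-labelled libraries and 23.8 and 22.3 CPM in the wild-type-labelled libraries (-0.88, SE 0.19, adjusted p = 0.0410). It was not called with E4BP4-cKO replicate 2 or any wild-type library left out. Instead of 1, 3 were lower under library totals alone, DESeq2 or no filter, and 2 under upper-quartile factors; with no filter 2 were higher. The p38 genes Mapk11 (-0.57, adjusted p = 0.0501) and Mapk14 (0.33, adjusted p = 0.0897) and Map3k7, which encodes the kinase TAK1 (-0.41, adjusted p = 0.0632), were not called. Mapk11 was called under library totals alone (adjusted p = 0.0319), upper-quartile factors (adjusted p = 0.0488) and DESeq2 (adjusted p = 0.0126), and Map3k7 under library totals alone (adjusted p = 0.0406) and DESeq2 (adjusted p = 0.0290).

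Transcripts known to respond to ERK went in both directions, as did calls over all genes tested (7.68% higher and 6.53% lower). Of 14 ERK-responsive genes, 3 were higher (21.4%) and 2 lower (14.3%), with a median log2 fold change of -0.18. The transcription factor gene Egr3 had 30.7 and 26.4 CPM in the E4BP4-cKO-labelled libraries and 127 and 109 CPM in the wild-type-labelled libraries (-2.05, SE 0.14, adjusted p = 0.0123). Its relative Egr2 had 33.3 and 32.3 CPM in E4BP4-cKO against 134 and 104 CPM in wild-type (-1.86, SE 0.15, adjusted p = 0.0141). Ier3, an early response gene, was higher, with 98.8 and 107 CPM in E4BP4-cKO against 25.3 and 35.2 CPM in wild-type (1.77, SE 0.18, adjusted p = 0.0190). Phlda1 (1.37, adjusted p = 0.0352) and the AP-1 gene Fosl2 (0.98, adjusted p = 0.0380) were higher as well; Fosl2 is named after its values were seen. With E4BP4-cKO replicate 2 or wild-type replicate 1 left out, 1 of the 14 was higher, and with no filter 4 were lower.

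**Figure D4:**
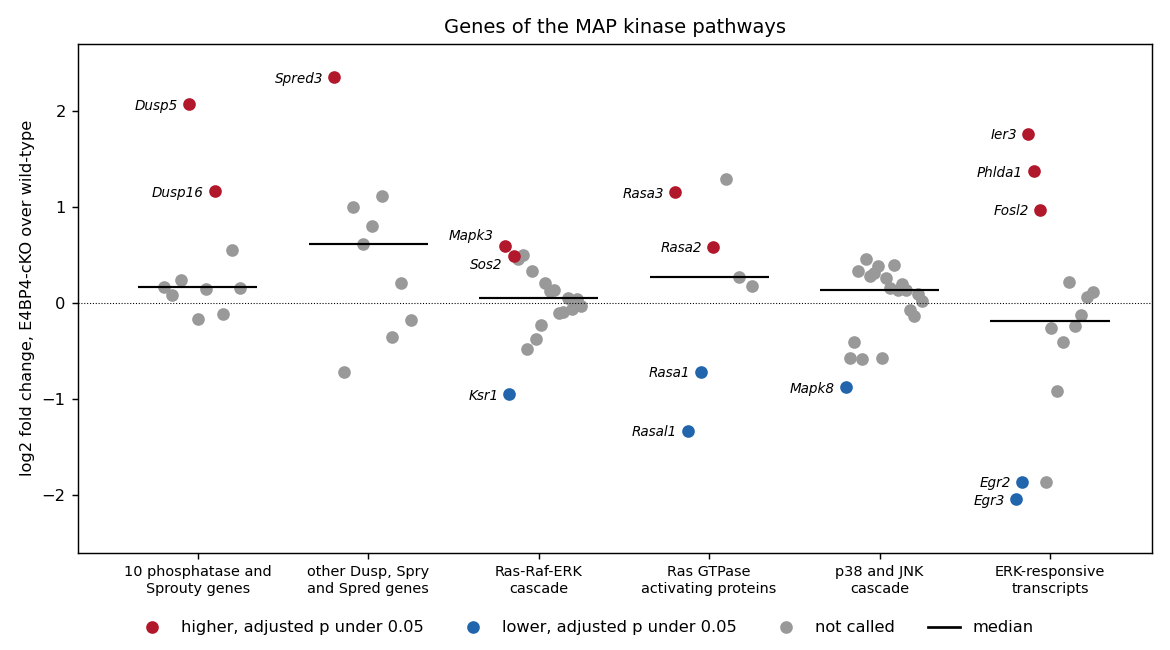
Log2 fold change, E4BP4-cKO over wild-type (vertical axis), of every tested gene of the 10 feedback genes and of 5 lists of MAP kinase pathway genes; colours mark genes called higher or lower at an adjusted p under 0.05, and horizontal lines are list medians. Medians lie between -0.18 and 0.62, and called genes lie on both sides of 0 in 3 of the 5 lists.

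Markers of other cell types differed between the groups beside Dusp5 and Dusp16. Over all genes tested, for comparison, 7.68% were called higher and 6.53% lower. The 7 myeloid markers summed to 250.1 and 178 CPM in the E4BP4-cKO-labelled libraries and to 35.9 and 14.9 CPM in the wild-type-labelled libraries, and 6 of 7 were higher, among them Cd68, Cd14, Fcer1g and Csf1r with log2 fold changes of 2.68, 4.67, 2.69 and 3.63. With E4BP4-cKO replicate 1 left out 3 of the 7 were called, and with replicate 2 left out also 3. The 6 mast cell and basophil markers summed to 1601 and 1238 CPM in E4BP4-cKO against 443 and 93.8 CPM in wild-type. Of these Cpa3 (2.60, adjusted p = 0.0357) and Kit (2.03, adjusted p = 0.0360) were higher, while Fcer1a (2.75, adjusted p = 0.0595) and Ms4a2 (2.59, adjusted p = 0.0664) were not called. Instead of 2, 1 was called with E4BP4-cKO replicate 1 or 2 left out, 5 with wild-type replicate 1 and 4 with wild-type replicate 2 left out; DESeq2 called 4, limma-voom 5 and the fit with no filter 6. Between the wild-type-labelled libraries Fcer1a differed 5.41-fold, with 36.1 and 6.67 CPM, and Ms4a2 by the same factor, with 31.2 and 5.77 CPM. The 7 B cell markers summed to 79.9 and 38.8 CPM in E4BP4-cKO against 379 and 376 CPM in wild-type. Ighm and Igkc were lower (-2.86 and -2.89), Ms4a1 (-2.40, adjusted p = 0.0723) and Pax5 (-1.55, adjusted p = 0.0765) were not called, and 5 were lower with E4BP4-cKO replicate 1 left out or with no filter, and 4 with DESeq2. Several of these marker folds moved by more than 1.5 times when a library was left out. With E4BP4-cKO replicate 1 left out, the log2 fold change was 3.90 for Cd14, 2.94 for Csf1r, 1.33 for Kit, -3.64 for Igkc, -3.86 for Ms4a1 and -2.39 for Pax5. With E4BP4-cKO replicate 2 left out, the log2 fold change was -1.74 for Ms4a1. With wild-type replicate 1 left out, the log2 fold change was 3.28 for Fcer1g, 5.12 for Csf1r, 3.48 for Cpa3, 4.42 for Fcer1a and 4.26 for Ms4a2. With wild-type replicate 2 left out, the log2 fold change was 2.87 for Csf1r, 1.98 for Fcer1a and 1.82 for Ms4a2.

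None of the myeloid, mast cell or B cell markers was at 0 in any library. The 6 CD8 and NK cell markers summed to 349 and 521 CPM in the E4BP4-cKO-labelled libraries and 411 and 342 CPM in the wild-type-labelled libraries. Nkg7 made up most of this, Ncr1 was at 0 in all 4 libraries, and Eomes, Cd8a, Nkg7 and Cd8b1 were not called (log2 fold changes -0.95, 0.76, 0.28 and -0.016), although DESeq2 called Eomes lower (adjusted p = 0.0488). Of the T cell markers, Cd5, Cd3d, Cd2 and Cd3g had log2 fold changes of -0.72, 0.45, 0.53 and 0.42, none called, and with E4BP4-cKO replicate 1 left out 1 of the 9 was higher and 1 lower (2 and 1 with no filter, 0 and 1 with DESeq2). Within the wild-type group, replicate 1 had the higher myeloid and mast cell sums. Dusp5 was at 59.3 CPM in wild-type replicate 1 and at 108 CPM in replicate 2, and Dusp16 at 22.1 and 25.2 CPM. Within the E4BP4-cKO group, replicate 1 also had the higher sums, with Dusp5 at 341 and 362 CPM and Dusp16 at 54.1 and 52.1 CPM in replicates 1 and 2. The part of other cell types in the difference of Dusp5 and Dusp16 between the groups was not tested.

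**Figure D5:**
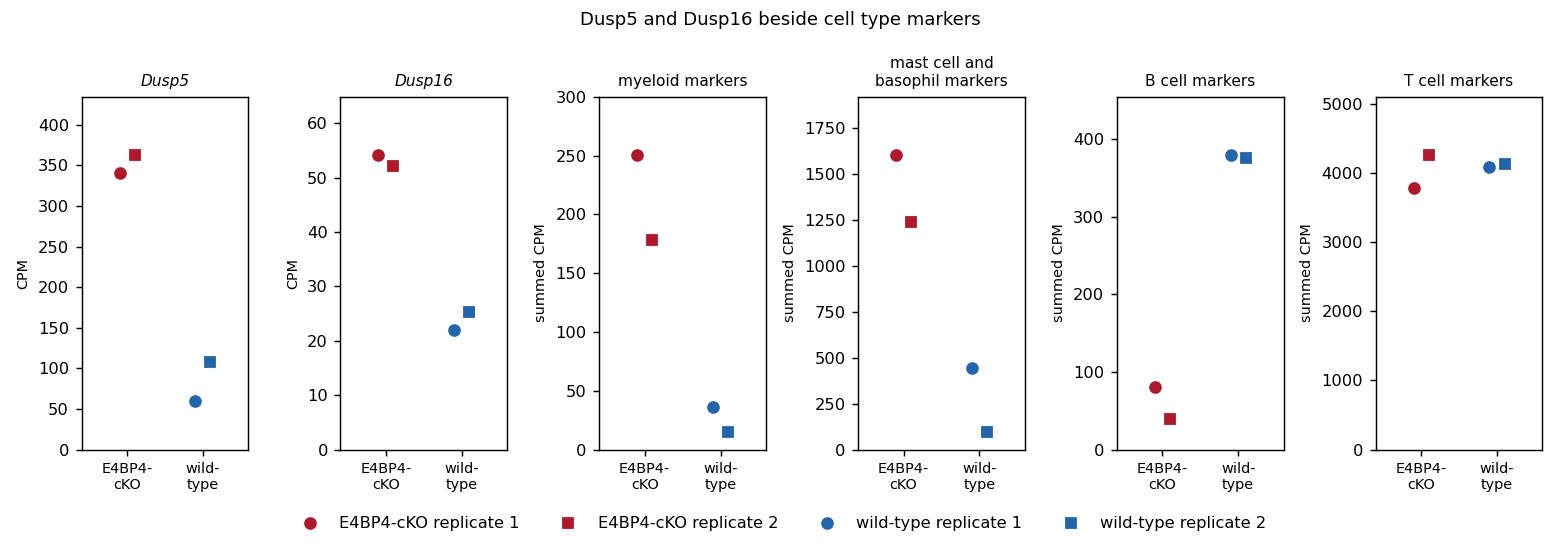
Levels of Dusp5 and Dusp16 (CPM) and summed CPM of the myeloid, mast cell and basophil, B cell and T cell markers (vertical axes, each from 0) in the 4 libraries. Myeloid sums are 250.1 and 178 CPM in E4BP4-cKO against 35.9 and 14.9 CPM in wild-type. In both groups replicate 1 has the higher myeloid and mast cell sums and the lower Dusp5 level. Dusp16 is lower in replicate 1 of the wild-type group and higher in replicate 1 of the E4BP4-cKO group. The part of other cell types in the differences of Dusp5 and Dusp16 was not tested.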

How the data were processed

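RNA was sequenced from 2 libraries with the genotype label E4BP4-cKO and 2 with the label wild-type. The authors deposited raw counts, whole numbers of reads assigned to each gene, and the length of each gene. Per the submitters' processing notes, the tools were CASAVA, HISAT2 and featureCounts and the build mm10; the sources used here give no versions, strand setting, annotation release or treatment of reads shared between genes. The whole table was fitted with edgeR 4.0.16 (TMM factors, filterByExpr, glmQLFit and glmQLFTest, no covariate) in R 4.3.3. P-values are two-sided and Benjamini-Hochberg adjusted over 15503 genes, with a threshold of 0.05, and log2 fold changes are E4BP4-cKO over wild-type. The SE is the log2 fold change divided by the root of the F statistic, and 95% intervals use the t quantile of its degrees of freedom. An exact permutation of 2 libraries against 2 cannot go below p = 0.333 and was not used.

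The libraries of a group differed by more than sampling noise (chi-square per degree of freedom 29.9 in E4BP4-cKO and 23.5 in wild-type) and were kept apart. Alternatives were other scaling (library totals, upper quartile), DESeq2 1.42.0, limma-voom (limma 3.58.1), 2 other filters, the replicate number as a block, and each library left out. The scripts were tested on simulated counts. The genes and lists were chosen with earlier results of these data known. All 10 genes are named, and from each list the 4 genes with the lowest p. Exon overlaps come from GENCODE M21. For Map2k7 and Itgam, which had 2 rows each, the row with more counts was used.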

Additional observations from a re-analysis of the deposited data

How the results depend on the processing

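Across 11 alternatives, Dusp5 kept its direction with log2 fold changes from 1.70 to 2.56 and Dusp16 from 1.07 to 1.26, and both were called in 10 of 11, the exception being the fit that left out E4BP4-cKO replicate 2; the cause was not tested. With 1 library left out, 0 to 2 of the 10 genes were called higher, and over all genes 246 to 954 were higher and 74 to 806 lower. DESeq2 called 1795 higher and 1657 lower, no filter on low counts 2680 and 2237, and scaling by library totals alone 1636 lower. With 1 library left out, the sign changed in values not called in either fit, over ranges of -0.077 to 0.40 for Dusp1, -0.12 to 0.28 for Dusp2, -0.51 to 0.12 for Dusp6, -0.42 to 0.15 for Spry1, -0.067 to 0.36 for Spred1, -0.028 to 0.55 for Nkg7, -0.12 to 0.095 for Cd8b1 and -0.23 to 0.32 for Cxcr5. It also changed for Cd8b1 under upper-quartile factors (0.0018) and for Cxcr5 under library totals alone (-0.031). Over all alternatives, other named genes gained a call in 53 values and lost it in 37.

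The labels do not pair the libraries, and across 15503 genes the difference between replicates 1 and 2 correlated at r = 0.054 between the groups. With the replicate number as a block, 1375 genes were higher and 1064 lower, and Dusp5 (2.13, adjusted p = 0.0180) and Dusp16 (1.17, adjusted p = 0.0185) were called. With 2 libraries a group, the 95% intervals of the other 8 genes span log2 differences between -0.83 and 1.39.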
